A study of Homo sapiens with 6 samples.

Results

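ISG15 is a small ubiquitin-like protein that cells attach to other proteins, and the genes described here are the 10 that code for ISG15, for the enzymes that attach and remove it, and for the PARP9-DTX3L complex with its related ADP-ribosyltransferases. The rule that picks them is a list of names and uses no measured value, although it was drawn up with earlier results of these data known: ISG15, UBA7, UBE2L6, HERC5, HERC6, USP18, DTX3L, PARP9, PARP14 and PARP10. They are 10 of 19871 gene symbols in the tables, and 43 of 92866 listed transcripts belong to them. The cells were HCT116, an established human colorectal cancer cell line, and total RNA was sequenced from 6 libraries in 3 groups of 2. The NC group was the negative control, and the sources do not say what its cells received. In the GAS5 group a plasmid carried GAS5, a long non-coding RNA (growth arrest-specific 5), into the cells by transfection. Because the treatment of NC is not stated, differences due to plasmid transfection and to GAS5 RNA cannot be told apart. In the siYAP group the cells were transfected with siRNA against YAP, the transcriptional co-activator of the Hippo pathway. The labels put all 3 groups under siRNA and do not say that the libraries of a group came from separate cultures. The tables hold 1 mean per group and no value per library, so no difference below has a replicate check, and no SD can be given. No p-value could be computed from these means, and the authors' own p-values were not used.

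ISG15 is made as a precursor and is joined to lysines of target proteins in a cascade like that of ubiquitin. UBA7 is the activating enzyme (E1), UBE2L6 the conjugating enzyme (E2), HERC5 the main human ligase (E3), and USP18 the protease that takes ISG15 off again. DTX3L is a ubiquitin ligase of the Deltex family that works as a dimer with PARP9, a macrodomain protein that binds ADP-ribose, and PARP14 and PARP10 attach single ADP-ribose units to proteins. Most of these genes are known as interferon-stimulated genes: type I interferon activates the transcription factor complex ISGF3, which binds the interferon-stimulated response element (ISRE) near their start sites.

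The promoter sequences are shown because 5 of the members that were higher in the GAS5 group hold a short motif there. RefSeq windows of 300 bases on GRCh38.p14, from 250 bases before the start site to 50 bases from it on, were found for 7 of the 10 members, ISG15, HERC5, HERC6, UBE2L6, DTX3L, PARP9 and PARP14, and none for USP18, UBA7 and PARP10. The windows were searched on both strands for the ISRE core GAAANNGAAA, in which N is any base. Matches may overlap, and capitals mark them in the stretches below, each written from 5′ to 3′ on the strand of its gene. The ISG15 stretch ends before the first exon of its main transcript ISG15-201 and the HERC5 stretch before its first exon in GENCODE 29, and the 30-base stretches are cut around a match.
ISG15 (chr1:1013367-1013422, + strand): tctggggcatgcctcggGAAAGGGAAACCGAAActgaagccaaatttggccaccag
HERC5 (chr4:88456989-88457116, + strand): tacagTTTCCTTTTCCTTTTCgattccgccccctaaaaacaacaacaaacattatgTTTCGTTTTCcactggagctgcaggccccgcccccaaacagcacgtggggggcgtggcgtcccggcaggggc
DTX3L (chr3:122564322-122564351, + strand): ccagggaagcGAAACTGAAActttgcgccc
PARP9 (chr3:122564322-122564351, - strand): gggcgcaaagTTTCAGTTTCgcttccctgg
PARP14 (chr3:122680800-122680829, + strand): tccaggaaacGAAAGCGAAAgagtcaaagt

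In ISG15, 2 overlapping matches begin 113 and 107 bases before the start site, on the strand of the gene. HERC5 holds 3 matches on the opposite strand, which begin 125, 119 and 74 bases before its start. DTX3L and PARP9 lie head to head on chromosome 3, with RefSeq starts 38 bases apart at the nearest, so that their stretches are the same 30 bases read from either strand. That single match begins 6 bases before the DTX3L start and 41 bases before the PARP9 start, and in GENCODE 29 it lies in an exon of DTX3L. The PARP14 match begins 29 bases before the RefSeq start, within an annotated PARP14 exon. No match to these letters was found in the windows of HERC6 and UBE2L6, including both windows listed for UBE2L6. The core is present in 3.57% of all 35116 windows. Among genes that have a window and a mean count of 50 or more, 343 of 9295 held it (3.69%), and among those at least 2-fold higher in the GAS5 group 24 of 67 did (35.8%). With the members left out the latter count was 19 of 61 (31.1%). The higher set was picked by its level in these same data, and the count minimum could be reached through the GAS5 group alone. Its share beside 3.69% is a description, and the difference was not tested. None of the 16 genes with a window that were at least 2-fold lower in the GAS5 group held the core. That set is too small to be told apart from the share of 3.69%.

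A second motif known from interferon-responsive promoters, the gamma-activated sequence TTCNNNGAA (its usual abbreviation is unrelated to GAS5), was found in 1 member, PARP14, where it begins 40 bases before the start and ends shortly before the ISRE core. It reads the same on both strands and is present in 7.66% of all windows. Among genes with a window and a mean count of 50 or more, 8.40% held it, among those at least 2-fold higher in the GAS5 group 16 of 67 (23.9%), or 15 of 61 (24.6%) without the members, and among those at least 2-fold lower 2 of 16 (12.5%). The higher and lower sets were picked by their levels in these same data, and the differences in share were not tested. A match describes letters in a window and not a bound site.
PARP14 (chr3:122680789-122680818, + strand): cctgggagttTTCCAGGAAacgaaagcgaa

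**Figure D1:**
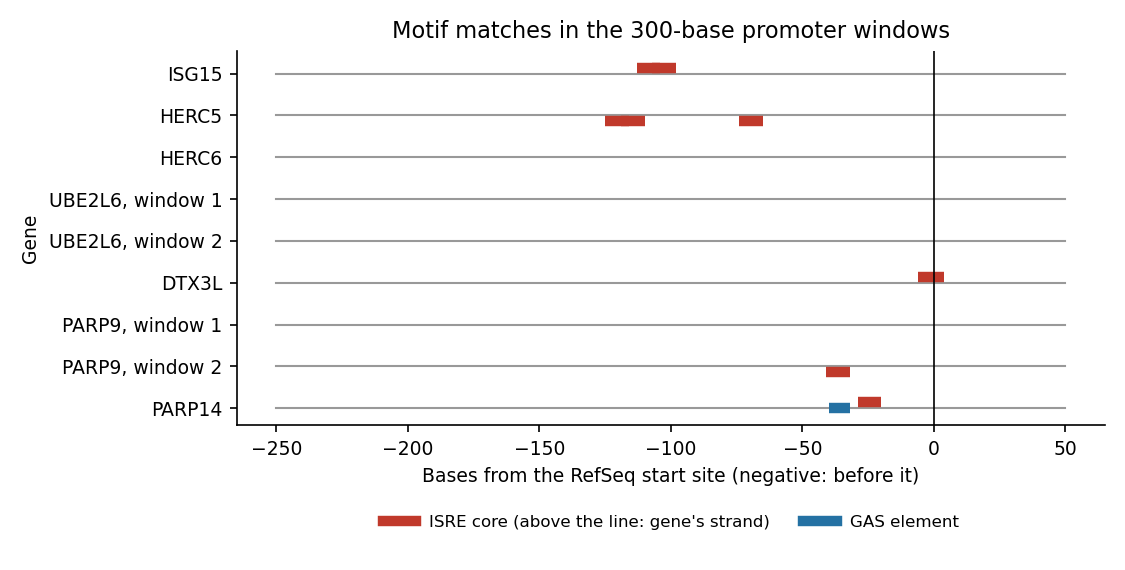
Positions of motif matches in the RefSeq promoter windows of 7 member genes. The x axis gives bases from the start site, negative before it, each grey line is 1 window, red bars are ISRE cores (above the line on the strand of the gene, below it on the opposite strand), and the blue bar is the gamma-activated sequence. Matches are seen in ISG15, HERC5, DTX3L, the second window of PARP9 and PARP14, and none in HERC6 or UBE2L6.

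The group means summed to 27206123 counts in NC, 25521577 with GAS5 and 26298036 with siYAP. The siRNA target YAP1 had 3480 counts in NC, 2679 with GAS5 and 1444 with siYAP, a log2 fold change of -1.18 for siYAP against NC (95% counting interval -1.25 to -1.12). GAS5 itself is not in the mRNA tables and is not analysed here. Of 9 colon epithelial markers, KRT8, KRT18 and KRT19 were the highest (65347, 33810 and 37514 counts in NC), CDX1 was listed at 0 in all groups, and VIL1 and LGALS4 had 6 counts or fewer. The leukocyte gene PTPRC was listed at 0 in all groups. The 6 leukocyte markers summed to 223 counts in NC, 351.5 with GAS5 and 229.5 with siYAP, mostly CD68 (CD14 had 4.5, 37.5 and 3), and the 7 fibroblast and endothelial markers to 380, 564 and 543, mostly COL1A1; their part in the results was not tested. Counts are given below as the authors' group means summed over the transcripts of a gene, which need not be whole. A gene was called higher or lower at a fold change of at least 2 after scaling by TMM (edgeR's trimmed mean of M values, which evens out library size and composition), if its mean count over the groups was at least 50, which 11907 genes reached.

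In the GAS5 group, 8 of the 10 members were at least 2-fold higher than in NC, and none was lower. Over all 11907 genes, 0.806% were called higher and 0.269% lower. The 8 were ISG15, PARP10, PARP9, USP18, DTX3L, HERC6, HERC5 and PARP14, from 7.43-fold down to 2.29-fold. UBE2L6 was 1.46-fold higher, and UBA7, with 13.3 counts on average, did not reach the count minimum. PARP10 reached it only through the GAS5 group (31.5 counts in NC and 24 in siYAP). The median log2 fold change was 1.53 over the 9 members that reached the minimum and 1.39 over all 10, beside 0.00 over all genes. Together the members took 0.0211% of all counts in NC, 0.0827% with GAS5 and 0.0215% with siYAP. RNA from a whole culture cannot tell a higher level in every cell from a much higher level in some of them.

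In the siYAP group no member was called higher or lower than in NC, beside 0.328% of genes called higher and 0.512% called lower. The members' log2 fold changes ran from -0.29 for PARP10 to 0.31 for ISG15 among the 9, with a median of -0.07. Both comparisons use the same NC means. The direct comparison of GAS5 with siYAP, which does not use NC, had 8 of the 10 members at least 2-fold higher in GAS5, the 8 genes named above, and none lower, beside 1.28% of genes called higher and 1.02% lower.

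**Figure D2:**
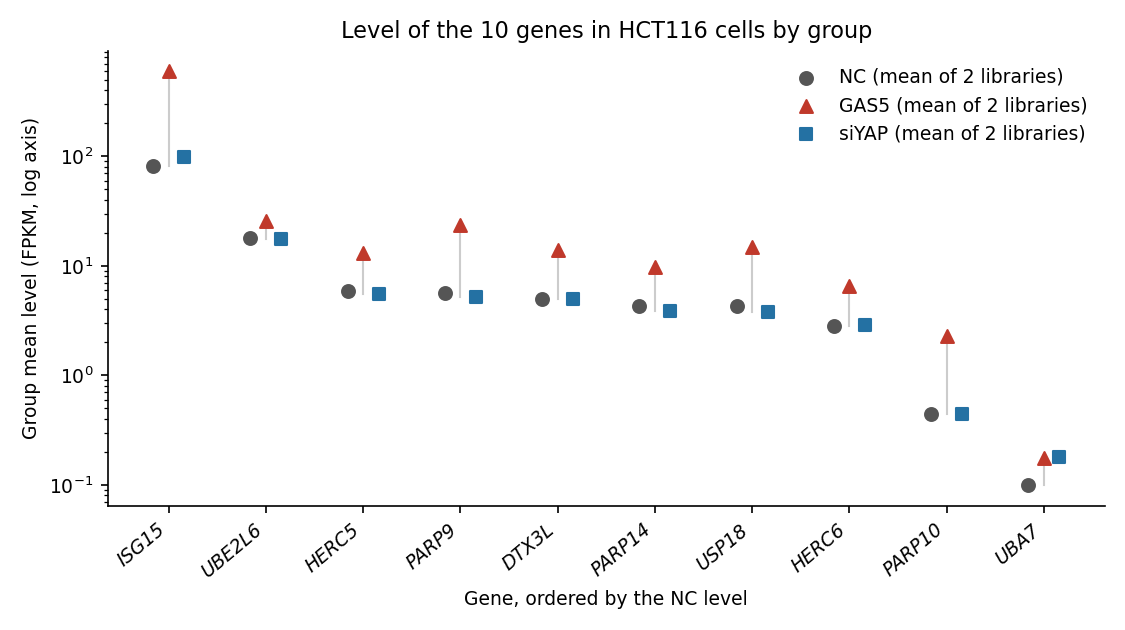
Level of the 10 genes in the 3 groups, in FPKM (fragment counts scaled for transcript length and library size) on a log axis. Each point is the authors' mean of 2 libraries summed over transcripts, with circles for NC, triangles for GAS5 and squares for siYAP; ISG15 is the highest in every group and UBA7 the lowest, and the triangle lies clearly above the other points for all but UBE2L6 and UBA7.

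ISG15, the modifier itself (ENSG00000187608, chr1:1001138-1014540, + strand, GENCODE 29 on GRCh38), had 1608 counts in NC, 11022 with GAS5 and 1881 with siYAP. The GAS5 mean stood far above the other groups, which lay close together. After scaling the log2 fold change was 2.89 for GAS5 against NC (95% counting interval 2.84 to 2.95), the highest of the members and the 11th highest of the 11907 genes. For siYAP against NC it was 0.31 (0.24 to 0.38). These intervals are exact binomial intervals for the fragments behind the means and cover counting error only, not the spread between libraries. Per length, ISG15 was by far the most abundant member, at 81.8 FPKM in NC, 595 with GAS5 and 98.7 with siYAP.

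The E1 enzyme UBA7 (ENSG00000182179, chr3:49805207-49813946, - strand) was barely detected, with 9 counts in NC, 15 with GAS5 and 16 with siYAP. Its level was 0.10, 0.175 and 0.18 FPKM, the lowest of the members in every group. The log2 fold change for GAS5 against NC was 0.73 with an interval from -0.03 to 1.78, and for siYAP against NC 0.78 (0.04 to 1.84). The intervals are wide, and the first of them holds 0. The E2 enzyme UBE2L6 (ENSG00000156587, chr11:57551656-57568284, - strand) was well measured, with 684 counts in NC, 921 with GAS5 and 643 with siYAP. GAS5 against NC gave it a log2 fold change of 0.55 (0.45 to 0.65) and siYAP against NC 0.00 (-0.12 to 0.11). UBE2L6 was thus higher in GAS5 by more than the counting error and by less than 2-fold, although it was the second most abundant member per length, at 18.01 FPKM in NC, 25.9 with GAS5 and 17.5 with siYAP. The ratio of ISG15 to UBE2L6 in FPKM was 4.54 in NC, 23.0 with GAS5 and 5.64 with siYAP.

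The E3 ligase HERC5 (ENSG00000138646, chr4:88457117-88506163, + strand) had 555.5 counts in NC, 1192 with GAS5 and 481.5 with siYAP. HERC6 (ENSG00000138642, chr4:88378739-88443111, + strand), its neighbour and a ligase of the same family, had 293.5, 649.5 and 291 counts. The 2 neighbours differed from NC by almost the same factor in GAS5, with log2 fold changes of 1.22 for HERC5 (1.12 to 1.32) and 1.26 for HERC6 (1.12 to 1.41). In siYAP they were -0.12 (-0.25 to 0.01) and 0.07 (-0.10 to 0.24), both intervals holding 0. The FPKM ratio of HERC5 to HERC6 stayed between 1.91 and 2.08 over the groups. The genes lie 14006 bases apart on chromosome 4.

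USP18 (ENSG00000184979, chr22:18149899-18177397, + strand) removes ISG15 from proteins and is also known to bind the interferon receptor and dampen its signal. It had 252 counts in NC, 821.5 with GAS5 and 215 with siYAP, all on a single listed transcript. The log2 fold change was 1.81 for GAS5 against NC (1.68 to 1.97) and -0.14 for siYAP against NC (-0.33 to 0.04). GAS5 was the high group, and NC and siYAP could not be separated at this depth. USP18 has a near-identical relative, USP41: 23.4% of the 50-base stretches of the USP18 transcript also occur in transcripts of other genes, mostly USP41, which was listed at 0 in all groups, so reads from one could have been counted for the other. The 78 other USP genes give the wider protease family; 43 reached the count minimum and none of them was called in either comparison, with log2 fold changes from -0.32 to 0.40 for GAS5 against NC. USP18 was thus the single gene of the USP family past 2-fold among those that reached the minimum.

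DTX3L (ENSG00000163840, chr3:122564238-122575203, + strand), the ligase of the PARP9-DTX3L dimer, had 797.5 counts in NC, 2126 with GAS5 and 780.5 with siYAP. PARP9 (ENSG00000138496, chr3:122527924-122564577, - strand), its partner on the other side of the shared start region, had 569.5, 2184 and 510.5 counts. Both were highest in GAS5, PARP9 by the larger factor. The log2 fold changes for GAS5 against NC were 1.53 for DTX3L (1.45 to 1.62) and 2.05 for PARP9 (1.96 to 2.15), and the intervals do not overlap. For siYAP against NC they were 0.05 (-0.05 to 0.16) and -0.07 (-0.20 to 0.05). The FPKM ratio of PARP9 to DTX3L was 1.14 in NC, 1.70 with GAS5 and 1.04 with siYAP. The genes overlap on opposite strands: 217 exonic bases of the main DTX3L transcript are also in PARP9 exons, 3.70% of its length. The libraries keep strand, but whether the counting used it is not stated.

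The mono-ADP-ribosyltransferase PARP14 (ENSG00000173193, chr3:122680618-122730840, + strand), a large macrodomain protein encoded 105415 bases beyond DTX3L, had 944 counts in NC, 1992 with GAS5 and 815 with siYAP. Its log2 fold change was 1.19 for GAS5 against NC (1.12 to 1.28) and -0.13 for siYAP against NC (-0.22 to -0.03). PARP10 (ENSG00000178685, chr8:143977153-144012772, - strand), a relative with the same kind of activity, was the second lowest member, with 31.5, 177 and 24 counts or 0.44, 2.295 and 0.445 FPKM. The log2 fold change was 2.53 for GAS5 against NC (2.22 to 3.02), second to ISG15, and -0.29 for siYAP against NC (-0.88 to 0.26), where the ratio of summed FPKM gave 0.016. The lower level of PARP10 made its interval the widest of the called members.

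**Figure D3:**
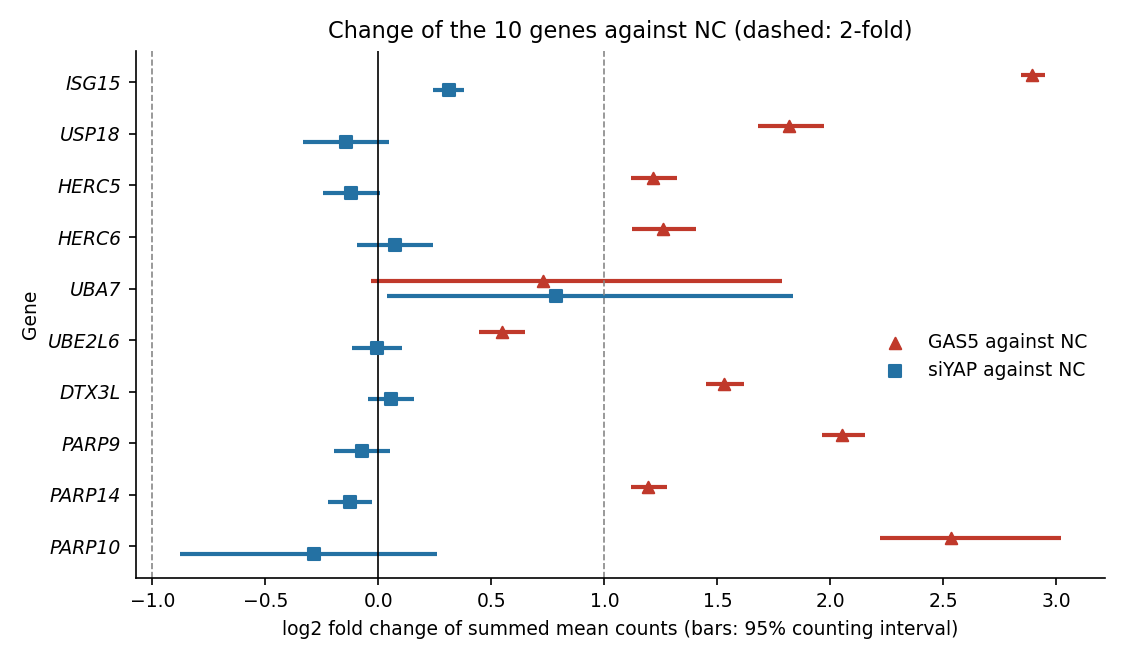
Log2 fold change of each member against NC on the x axis, with triangles for GAS5 and squares for siYAP; bars are 95% counting intervals on the fragments behind the group means, and dashed lines mark 2-fold. The triangles of 8 genes lie beyond the dashed line at 1, led by ISG15 at 2.89, and no square lies beyond either dashed line, with UBA7 at 0.78 the nearest and its bar the longest.

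In order of level per length in NC, the members ran from ISG15 (81.8 FPKM) and UBE2L6 (18.01) through HERC5 (5.92), PARP9 (5.66), DTX3L (4.96), PARP14 (4.33), USP18 (4.27) and HERC6 (2.84) to PARP10 (0.44) and UBA7 (0.10). PARP14 and USP18 were next to each other in this order and differed little. In the GAS5 group PARP9 (23.7 FPKM) stood close behind UBE2L6 (25.9), and USP18 (14.8), DTX3L (13.9) and HERC5 (13.1) lay close together. The spread between libraries is not known, so neighbours in these orders cannot be ranked with an error.

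The counts are estimates per transcript, and 30 of the 43 listed member transcripts were above 0 in some group. In the GAS5 comparison 20 of the 43 passed edgeR's filter on low counts, of which 13 were at least 2-fold higher and 2 lower (HERC5-203 and PARP10-205), beside 10.6% and 9.48% of all 41340 transcripts that passed. Of the 13, HERC6-203, PARP9-207, PARP10-201 and PARP10-203 were listed at 0 in NC and passed the filter through the GAS5 group alone, so that they could differ in 1 direction only; of the 16 others that passed, 9 were higher. In the siYAP comparison 16 passed, of which none was higher and 2 lower (PARP9-205 and PARP10-205), beside 9.41% and 11.4% of 40876. For ISG15, 99.7% of the NC counts lay on 1 transcript (ISG15-201, ENST00000379389, 711 bases, coding for 165 residues), and for HERC6 and DTX3L the main transcript also took 97.1% or more in every group. UBE2L6 had 90.6% of its NC counts on UBE2L6-201, a 153-residue form, and 9.21% on UBE2L6-202, which codes for 87 residues. The 2 differed in their estimated counts: UBE2L6-201 went from 620 counts in NC to 867 in GAS5 (log2 fold change 0.59), while UBE2L6-202 had 63.0 and 53.7 (-0.12, interval -0.51 to 0.26). That interval leaves out the error of assigning fragments to transcripts and the spread between libraries.

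PARP9 was spread over several transcripts, and they did not move alike. PARP9-205 (ENST00000477522), the most abundant in NC, had 175 counts in NC, 294 with GAS5 and 33.7 with siYAP. PARP9-204 (ENST00000471785) had 164, 867 and 194 counts, and PARP9-202 (ENST00000462315) had 154, 550 and 151. PARP9-201 (ENST00000360356) had 76.5, 433 and 132 counts. Their log2 fold changes for GAS5 against NC were 0.85, 2.50, 1.93 and 2.58 in this order, so 3 of the 4 were past 2-fold. In siYAP against NC PARP9-205 was the lowest of the 4 at -2.20 (-2.67 to -1.89) while the gene sum was level. That interval leaves out the error of assigning fragments to similar transcripts. PARP9-204 and PARP9-205 have the same coding sequence for 819 residues and share 2908 exonic bases, 95.7% of the shorter, so their split rests on the bases outside it. The share of PARP9 counts given to PARP9-205 was 30.8% in NC, 13.5% with GAS5 and 6.60% with siYAP.

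PARP10 changed the transcript to which most of its few counts were given. PARP10-205 (ENST00000525773, 1037 residues) had 28.7 counts in NC, 91.1% of the gene, 7.84 in GAS5 and 0 in siYAP. PARP10-203 (ENST00000524918, 1016 residues) and PARP10-201 (ENST00000313028, 1025 residues) were listed at 0 in NC and had 102 and 59.0 counts in GAS5 and 10.4 and 10.2 in siYAP. For GAS5 against NC the lower ends of their 95% counting intervals were 5.88 and 5.09 on the log2 scale. These bounds take the estimated 0 in NC as counted and leave out the error of assigning fragments to transcripts. The 3 transcripts share 95.2% or more of the exonic bases of the shorter of each pair, so the gene sum is the firmer value. HERC5 showed a smaller shift of this kind. Its main transcript HERC5-201 (ENST00000264350, 1024 residues) had 520 counts in NC, 1176 with GAS5 and 422 with siYAP. The 662-residue HERC5-203 (ENST00000508159) had 35.1, 15.1 and 59.6, a log2 fold change of -1.01 for GAS5 against NC (-1.78 to -0.48). HERC5-203 shares 96.4% of its exonic bases with HERC5-201, and this interval also leaves out the error of assigning fragments to transcripts. In PARP14, 11.99% of the NC counts lay on an assembled transcript without an Ensembl identifier, with 113, 178 and 167 counts, beside 831, 1814 and 648 for PARP14-202 (ENST00000474629, 1801 residues).

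**Figure D4:**
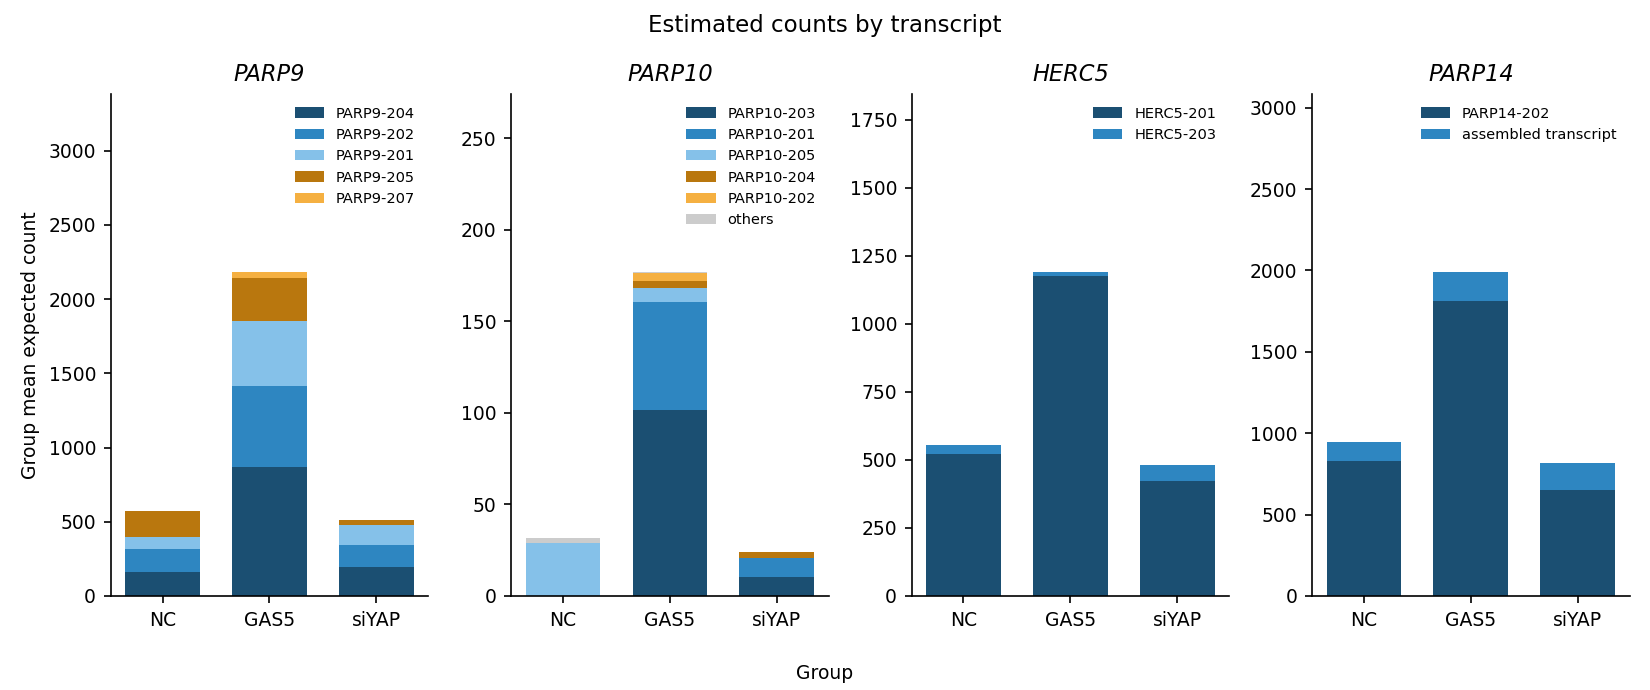
Group mean expected counts of PARP9, PARP10, HERC5 and PARP14, stacked by transcript, with 1 bar per group and a separate y axis per gene that starts at 0. The GAS5 bar is the tallest in each panel; in PARP10 the NC bar is nearly all PARP10-205, while PARP10-203 and PARP10-201 fill most of the GAS5 bar.

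The related enzymes and their partners were read as 8 lists of 55 genes, 49 of which reached the count minimum. In GAS5 against NC, 1 of the 49 was at least 2-fold higher and none lower, beside 0.806% and 0.269% of all genes. In siYAP against NC none was higher and 1 lower, beside 0.328% and 0.512% of all genes. Among the 14 other ADP-ribosyltransferases, PARP12, a mono-ADP-ribosyltransferase with zinc fingers, was the 1 gene called higher in GAS5, with 767.5 counts in NC, 1802 with GAS5 and 773.5 with siYAP (log2 fold change 1.35 for GAS5 against NC). Its catalytically inactive relative ZC3HAV1, an antiviral RNA-binding protein chosen here after its value was seen, had 2343, 3758 and 2215 counts (0.80). PARP15, which lies between DTX3L and PARP14, went the other way: it had 299 counts in NC, 201 with GAS5 and 118 with siYAP, log2 fold changes of -0.45 and -1.24. The median of the 14 was 0.00 for GAS5 against NC.

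Of the listed genes of other ubiquitin-like systems that reached the count minimum, none was past 2-fold. The lists do not cover these systems in full. Of the 9 other E1 subunits, none was called, with log2 fold changes from -0.09 to 0.22 in GAS5 against NC and from -0.43 to 0.17 in siYAP against NC; the highest in NC was UBA1, the main E1 of ubiquitin. None of the 12 ubiquitin-like modifiers that reached the minimum was called (-0.32 to 0.30 in GAS5, -0.42 to 0.31 in siYAP), a list led by the ubiquitin genes. TRIM25, a second ligase for ISG15, had 6595 counts in NC, 8701 with GAS5 and 8420 with siYAP, log2 fold changes of 0.52 and 0.44, while ARIH1 and UBE2L3, the E2 closest to UBE2L6, were at -0.08 and 0.22 in GAS5 against NC. The 4 other HERC ligases, HERC1 to HERC4, ran from -0.23 to -0.02, beside 1.22 and 1.26 for HERC5 and HERC6. The Deltex ligases DTX2 and DTX4 were at 0.01 and -0.09, beside 1.53 for DTX3L, and DTX1 and DTX3 did not reach the minimum. None of the 5 ADP-ribose hydrolases that reached it was called (-0.25 to 0.41 in GAS5, and -0.50 to 0.50 in siYAP with a median of -0.42), PARG having the highest NC count among them. ITGAL and ITGB2, which form the LFA-1 integrin to which free ISG15 binds on leukocytes, had 3 counts or fewer in every group.

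IRF9 and STAT2, subunits of ISGF3, were read apart from these lists. IRF9 had 470, 1177 and 526.5 counts in the order NC, GAS5 and siYAP, and its log2 fold change for GAS5 against NC was 1.44, past 2-fold. STAT2 had 1277, 1632 and 1394 counts (0.47). In siYAP against NC they were at 0.25 and 0.21.

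**Figure D5:**
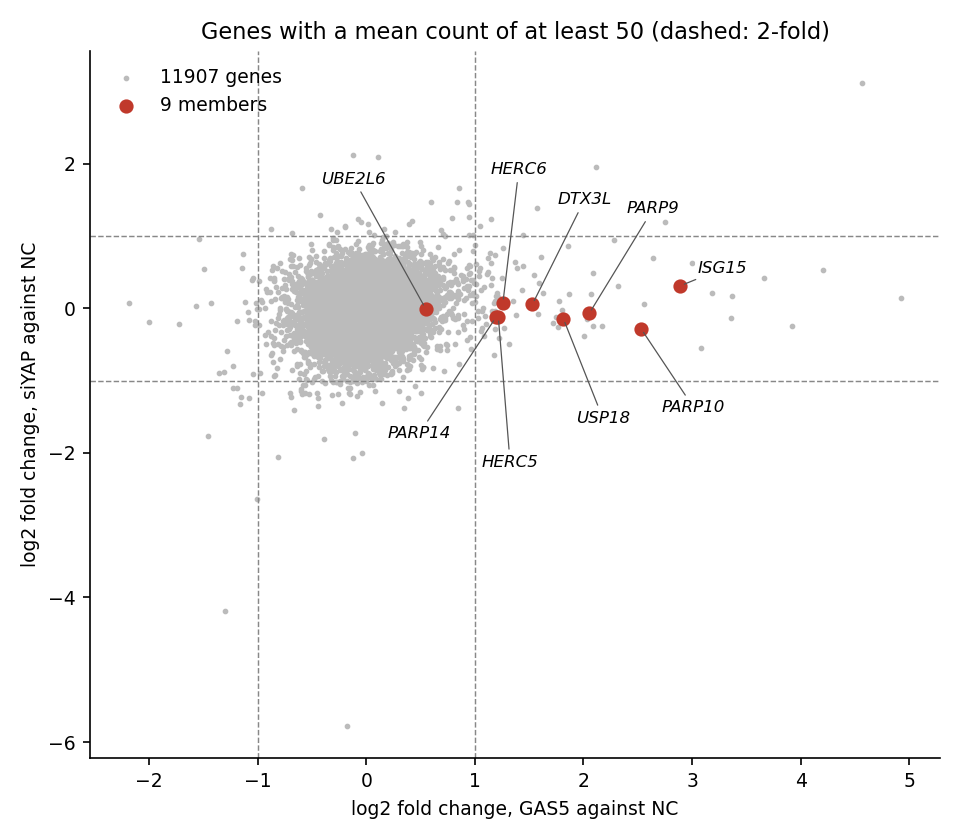
Each grey point is 1 of 11907 genes whose mean count was 50 or more; the x axis is the log2 fold change of GAS5 against NC and the y axis that of siYAP against NC, which share the NC means. Red points are the 9 members that reached this count; 8 lie right of the dashed 2-fold line at 1 and all 9 lie within the dashed lines on the y axis.

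The genes around the members were compared as well. The nearest listed genes on either side, 2 per side, were 29 genes that are not members, of which 18 reached the count minimum. In GAS5 against NC, 1 of the 18 was higher and none lower, beside 0.806% and 0.269% of all genes. The median log2 fold change of the 18 was 0.13. The higher one was HES4, a transcriptional repressor of the Hairy family, with 216 counts in NC, 446.5 with GAS5 and 271.5 with siYAP (1.16). It lies 966 bases from the outer bound of the annotated ISG15 gene at 1001138. The main transcript ISG15-201, with 99.7% of the NC counts, begins farther away, at 1013423. The other genes beside ISG15 were also higher in GAS5, though below 2-fold or, for PERM1, below the count minimum: AGRN, which codes for agrin, had 1569, 2247 and 1930 counts (0.64), RNF223 had 93.5, 134.5 and 124 (0.63), and PERM1 had 4.5, 10.5 and 5.5. In siYAP against NC, HES4, AGRN and RNF223 were at 0.41, 0.38 and 0.48, beside 0.31 for ISG15 itself. In siYAP against NC 1 of the 18 was lower, PARP15, given above, beside 0.512% of all genes.

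The genes most like ISG15 in the plane of both log2 fold changes, by Euclidean distance over 3 group means, were CMPK2, OASL, NMNAT3, JUN and IFITM1, at distances of 0.31 to 0.49. CMPK2, a mitochondrial nucleotide kinase, had 25 counts in NC, 225.5 with GAS5 and 27.5 with siYAP, and OASL, a member of the 2′-5′ oligoadenylate synthetase family with ubiquitin-like domains, had 137, 1025 and 199. JUN, a subunit of AP-1, had 391, 2256 and 595.5 counts. IFITM1 had 25.7, 262 and 27.4 counts, and both IFITM1 and CMPK2 reached the count minimum only through the GAS5 group. Nearest to the members' median were CPA4, ATF3, DHX57 and SP110, at 0.05 to 0.22. SP110, a nuclear body protein, had 370, 1152 and 321 counts, and the stress-response factor ATF3 had 830, 1986 and 732.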

How the data were processed

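Total RNA of HCT116 cells was sequenced as strand-specific libraries, 2 for each of the NC, GAS5 and siYAP groups. Reads were aligned with TopHat2 2.1.1 per the submitters' processing notes; the counting tool, genome build and annotation are not given in the sources used here. The deposited tables, 1 for each treatment against NC, list 92866 mRNA transcripts. Their expected counts are estimates per transcript, which the authors averaged within each group and did not normalize. The deposited FPKM values are averages of the same kind, scaled for length and library size, with 0 written as 0.001. Gene sums multiplied by 2 were whole within 0.1 for 90.2% or more of genes in each group, and for all 30 member values, so that whole fragments lie behind the means. The authors' columns of log2 fold change, p-value and FDR compare the groups and were not used.

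Tables were joined by transcript. Symbols came from the siYAP table, since 212 differ in the other, partly as dates. The 339 transcripts without a symbol, 0.224% of NC counts, stayed out of gene sums. Gene sums and transcripts were each scaled by TMM (edgeR 4.0.16, filterByExpr with a minimum count of 10, R 4.3.3), with a prior count of 2. Calls needed a 2-fold change and, for genes, a mean count of 50 over the groups. With 1 mean per group no test was possible. Counting intervals (95%, Clopper-Pearson) used 2 times the means and cover counting error only. The steps were tested on simulated data. Python 3.11.15, numpy 2.4.6, pandas 2.3.3 and scipy 1.17.1 were used, with DESeq2 1.42.0 for alternative size factors. Coordinates come from GENCODE 29 on GRCh38 and promoter windows from RefSeq on GRCh38.p14; the authors' build may differ.

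The members and lists were chosen with earlier results of these data known. Named were all members, list genes at 2-fold or more (otherwise up to 3 with the highest NC count), neighbours at 2-fold or more, USP41, the 5 genes nearest to ISG15 and to the members' median, and member transcripts that were the most abundant in NC or at 2-fold with at least 50 counts. Other named transcripts, list genes and neighbours were chosen after their values were seen. One gene that this rule names is not reported here.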

Additional observations from a re-analysis of the deposited data

How the results depend on the processing

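The alternatives were DESeq2 size factors, total counts, no low-count filter, an NC count of at least 50, summed mean FPKM with a prior of 0.01, a prior count of 0.5, and Ensembl transcripts only. No member crossed 2-fold in any comparison under any of them. Of 311 recomputed values, 303 stayed within their counting interval or, for counts of genes or transcripts, within 1.5 times. A median was held against the median lower end and the median upper end of the members' intervals. Of the 8 others, the log2 fold changes and medians kept their sign, and the rest were counts of member transcripts, given below. Of the values within their interval, PARP10 in siYAP against NC turned from -0.29 to 0.016 by FPKM. The median log2 fold change of members for GAS5 against NC was 1.39 both without a filter (10 genes) and with the NC minimum (8 genes, since PARP10 is left out), against 1.53, as the genes entering it changed. Without a filter, member transcripts past 2-fold in siYAP against NC numbered 3 higher and 4 lower, against 0 and 2. YAP1 in siYAP against NC was -1.26 by FPKM, PARP10 in GAS5 against siYAP 2.34 by FPKM, and PARP14 with Ensembl transcripts only 1.498 in GAS5 against siYAP and -0.28 in siYAP against NC; the cause was not tested. Leaving out replicates, the replicate block and the DESeq2 test need values per library and were not run. No paired analysis was possible because the values of the 2 libraries are given only as their mean. Depth limits UBA7 and PARP10, and nothing here measures the spread between libraries.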
